A study of Mus musculus with 6 samples.

Results

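Expression of 10 adipogenic regulators and lipid storage genes was examined in primary mouse muscle stem cells with loxP-flanked alleles of the Mediator subunit gene Med23, with and without Cre recombinase. The 10 genes were chosen by symbol: Pparg, Cebpa and Cebpb as regulators, Lpl, Cd36, Fabp4 and Acsl1 for the supply of fatty acids, and Plin2, Pnpla2 and Lipe for lipid droplets. All 10 were found by name among the 32973 genes of the deposited table. All 10 had a mean of at least 1 FPKM (fragments per kilobase of transcript, scaled to library size) and were among the 12336 genes tested. The Med23KO cells had the genotype Med23flox/flox::Pax7CreERT2, in which a tamoxifen-inducible Cre is driven by Pax7, a gene active in muscle stem cells (3 libraries). The Ctrl cells were Med23flox/flox and carried no Cre (3 libraries). Cells of both groups were sorted by flow cytometry from skeletal muscle and grown for 3 days on dishes coated with collagen. The medium held serum and fibroblast growth factor, and no adipogenic inducer is listed. The labels list no treatment and give neither the age of the mice nor how Cre was induced. No group has Cre with intact Med23 alleles, so that an effect of losing Med23 and an effect of Cre itself cannot be told apart. Whether a group's libraries stem from different mice or cultures is not stated, and p-values therefore measure only the spread between them, which may be technical.

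Adipogenesis runs through a cascade of transcription factors. C/EBP-beta (Cebpb) acts early and turns on the nuclear receptor PPAR-gamma (Pparg) and C/EBP-alpha (Cebpa), which sustain each other and activate the genes of fat storage. Fatty acids are freed from lipoproteins by lipoprotein lipase (Lpl), taken up with the help of Cd36, bound by Fabp4 and activated by the acyl-CoA synthetase Acsl1. Stored triglyceride sits in droplets coated by perilipins such as Plin2 and is broken down by adipose triglyceride lipase (Pnpla2) and then by hormone-sensitive lipase (Lipe). In muscle, adipocytes usually arise from fibro-adipogenic progenitors rather than from muscle stem cells. Med23 has been described in cultured mouse cells as a link between insulin signalling and adipogenesis.

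Med23 itself was lower in each Med23KO library than in each Ctrl library, with a mean of 47.1% of the Ctrl level (5.06 ± 0.818 FPKM in Med23KO and 10.8 ± 0.783 FPKM in Ctrl, SD, n = 3; limma adjusted p = 0.0197). That call held without Med23KO replicate 3 (limma adjusted p = 0.00869) and was lost without any other single library (limma adjusted p up to 0.108). Called means a Benjamini-Hochberg adjusted p under 0.05 over all tested genes, from limma on log2(FPKM + 1). By that rule 1.49% of the tested genes were called higher and 1.42% lower in Med23KO, so that 51.3% of the calls were higher. With libraries scaled to equal medians that share was 63.9%, and with sums equalised without the noncoding RNA gene Rmrp it was 75.7%. Read numbers are not known for any library. The sum of FPKM without Rmrp was 426697 to 476046 in Med23KO and 468565 to 507383 in Ctrl, lowest in Med23KO replicate 3.

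Of the 10 genes, Plin2 and Lpl rose in Med23KO cells, and 0 fell. Plin2, which encodes a droplet coat protein, was 1.55-fold higher in mean FPKM, and Lpl 2.72-fold. The regulators Pparg, Cebpa and Cebpb did not pass the test, nor did Cd36, Fabp4, Acsl1, Pnpla2 and Lipe. The log2 fold change was above 0 in 9 of the 10, with a median of 0.31, beside a median of -0.03 over all tested genes. Values of the Med23KO and Ctrl libraries did not overlap for Plin2, Lpl, Acsl1 and Pparg, all 4 higher in Med23KO. Groups did not overlap in that direction in 10% of all tested genes and in the other direction in 14.7%. In bulk RNA, fewer cells of a type and less RNA per cell cannot be told apart.

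Markers were read beside these values, because stromal and fat cells also express the 10 genes. All 8 muscle stem cell markers were tested and 0 were called (median log2 fold change 0.16), with a summed level of 1266 to 2051 FPKM in Med23KO and 1394 to 2081 FPKM in Ctrl, the largest share of it Myod1. Their log2 fold changes had both signs. Itga7, a laminin receptor subunit, had 59.7, 64.2 and 50.5 FPKM in Med23KO replicates 1, 2 and 3, against 112, 105 and 79.1 FPKM in Ctrl replicates 1, 2 and 3, without overlap (log2 fold change -0.74, limma adjusted p = 0.0515). Cdh15, a muscle cadherin, had 32.0 ± 10.2 FPKM in Med23KO and 18.2 ± 4.57 FPKM in Ctrl (SD, n = 3), with overlap (log2 fold change 0.76, limma adjusted p = 0.168). In the authors' deposited table Cdh15 and Des passed as higher and Itga7 as lower at q under 0.05. Of 10 markers of mature adipocytes, 0 reached the mean of 1 FPKM needed for the test. Cfd, Cidec, Lep, Retn and Thrsp were at 0 in all 6 libraries. The summed adipocyte markers came to 0.442 to 2.40 FPKM in Med23KO and 0.324 to 0.786 FPKM in Ctrl. Most of that was Slc2a4, a glucose transporter gene that muscle also uses. In the authors' deposited table Slc2a4 passed as higher (q = 0.000695), and no other adipocyte marker passed. Slc2a4 had a mean of 1.26 FPKM in Med23KO and 0.459 FPKM in Ctrl, with overlap between the groups. Of 12 markers of fibro-adipogenic progenitors and fibroblasts, 10 were tested, 0 were called, and all 10 had a log2 fold change above 0 (median 0.52; lowest limma adjusted p = 0.0764). Of those 10, 6 passed in the authors' deposited table as higher at q under 0.05 (Col3a1, Dcn, Gsn, Ly6a, Pdgfra and Thy1) and 0 as lower, beside 8.34% of all tested genes higher. Their summed level was 293 to 452 FPKM in Med23KO and 219 to 290.3 FPKM in Ctrl, without overlap, and 0 of the 12 were at 0 in every library. Col3a1 made up most of that sum, with 242 ± 52.5 FPKM in Med23KO and 161 ± 21.9 FPKM in Ctrl, and Pdgfra, which defines the progenitors, had 2.95 ± 0.731 FPKM in Med23KO and 1.88 ± 0.700 FPKM in Ctrl (SD, n = 3). The part of these cells in the values of the 10 genes was not tested. Endothelial markers (4 tested of 9 listed) and macrophage markers (3 tested of 8 listed) gave 0 calls, with sums of 7.21 to 9.97 FPKM in Med23KO and 5.84 to 13.7 FPKM in Ctrl, and of 13.4 to 40.3 FPKM in Med23KO and 14.5 to 27.3 FPKM in Ctrl.

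Promoters are shown for the genes whose groups did not overlap. A table of RefSeq promoters (GRCm38.p6, from 250 bases before to 50 after each start) held 8 of the 10 genes with 12 start sites; Lpl and Fabp4 were not among them. The windows are printed in the direction of the gene. Capitals mark matches on either strand to the C/EBP core TTNNGNAA, the nuclear receptor half-site AGGTCA, the E-box CACGTG or the TATA box TATAAA.
Plin2, chr4:86670010-86670309, minus strand: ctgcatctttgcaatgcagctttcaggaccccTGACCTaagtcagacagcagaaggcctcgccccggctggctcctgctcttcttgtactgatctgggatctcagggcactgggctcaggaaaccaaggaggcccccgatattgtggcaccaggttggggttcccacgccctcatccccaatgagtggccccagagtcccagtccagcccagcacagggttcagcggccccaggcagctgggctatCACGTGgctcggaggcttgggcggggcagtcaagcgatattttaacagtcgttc
Acsl1, the first start, chr8:46470787-46471086, plus strand: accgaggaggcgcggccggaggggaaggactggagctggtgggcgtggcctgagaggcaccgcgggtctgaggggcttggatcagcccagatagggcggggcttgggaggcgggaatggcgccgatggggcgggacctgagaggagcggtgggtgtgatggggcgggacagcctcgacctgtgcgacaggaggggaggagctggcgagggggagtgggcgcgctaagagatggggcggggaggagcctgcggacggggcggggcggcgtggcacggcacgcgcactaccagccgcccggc
Acsl1, the second start, chr8:46490716-46491015, plus strand: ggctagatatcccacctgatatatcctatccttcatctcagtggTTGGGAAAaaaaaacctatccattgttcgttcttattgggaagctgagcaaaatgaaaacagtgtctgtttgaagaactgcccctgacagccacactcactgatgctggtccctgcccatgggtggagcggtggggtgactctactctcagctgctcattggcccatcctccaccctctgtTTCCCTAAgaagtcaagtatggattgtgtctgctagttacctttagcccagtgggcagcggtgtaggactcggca
Pparg, the first start, chr6:115360894-115361193, plus strand: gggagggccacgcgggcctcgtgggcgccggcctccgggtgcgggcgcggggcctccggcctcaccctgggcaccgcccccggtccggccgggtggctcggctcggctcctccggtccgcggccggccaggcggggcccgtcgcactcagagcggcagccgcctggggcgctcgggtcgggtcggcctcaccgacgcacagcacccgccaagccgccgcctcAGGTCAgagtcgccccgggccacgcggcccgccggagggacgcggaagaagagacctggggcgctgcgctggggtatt
Pparg, the second start, chr6:115362099-115362398, plus strand: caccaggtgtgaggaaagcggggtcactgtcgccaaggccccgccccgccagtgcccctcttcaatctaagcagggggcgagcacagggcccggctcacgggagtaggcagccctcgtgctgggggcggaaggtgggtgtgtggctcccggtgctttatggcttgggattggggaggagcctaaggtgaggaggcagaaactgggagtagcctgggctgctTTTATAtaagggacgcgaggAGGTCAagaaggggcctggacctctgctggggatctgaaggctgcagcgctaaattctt
Pparg, the third start, chr6:115421816-115422115, plus strand: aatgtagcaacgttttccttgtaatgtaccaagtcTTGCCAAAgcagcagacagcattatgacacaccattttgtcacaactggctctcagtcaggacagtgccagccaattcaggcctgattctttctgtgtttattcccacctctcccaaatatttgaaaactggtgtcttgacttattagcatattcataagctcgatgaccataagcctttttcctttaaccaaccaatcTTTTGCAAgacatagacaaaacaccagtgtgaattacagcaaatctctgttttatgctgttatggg

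The Plin2 window held 1 E-box across its start site and 1 half-site upstream. An E-box occurs in 7.15% and a half-site in 16.3% of the 32851 promoters of the table. The first Acsl1 window held no match, and the second held 2 C/EBP cores. The third Pparg window also held 2 C/EBP cores, while the first and second held 1 half-site each, the second with a TATA box. A C/EBP core occurs in 40.7% and a TATA box in 13.6% of the promoters. The DR1 element to which PPAR-gamma binds with RXR, a direct repeat of AGGTCA with 1 base between the copies, occurs in 0.0396% of the promoters and was found in 0 of the 12 windows. By its letters a DR1 match also holds half-sites. A match is a run of letters in these windows, and FPKM per gene do not show which start was used.

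**Figure D1:**
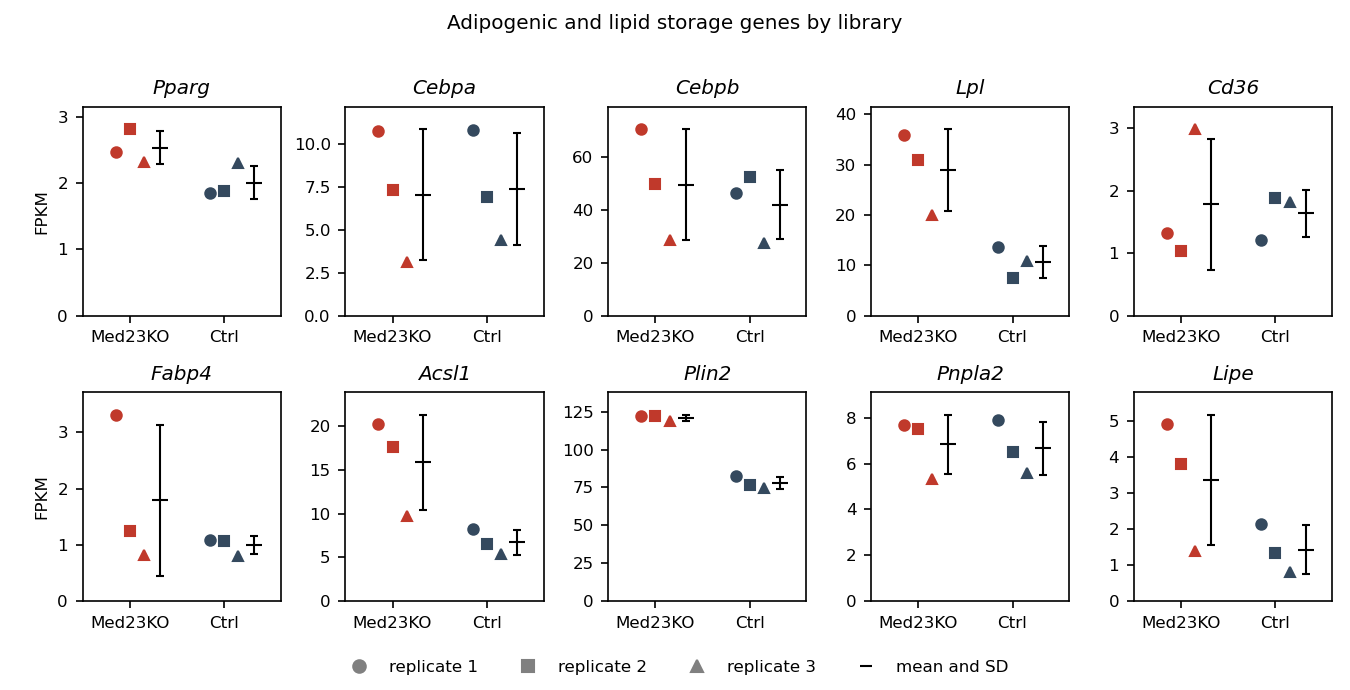
FPKM of each of the 10 genes (vertical axes, linear from 0) in the 3 Med23KO libraries (left, red) and the 3 Ctrl libraries (right, blue), with a symbol for each replicate number and bars for mean and SD. Plin2, Lpl, Acsl1 and Pparg have every Med23KO value above every Ctrl value, and in 9 of the 10 genes the lowest Med23KO value is replicate 3.

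Among the regulators, Pparg was low, Cebpb abundant, and all 3 missed the threshold. Pparg (ENSMUSG00000000440.12, mm10 chromosome 6, 115360951 to 115490399, plus strand), the receptor that commits cells to the adipocyte fate, had 2.47, 2.81 and 2.32 FPKM in Med23KO replicates 1, 2 and 3, against 1.85, 1.87 and 2.29 FPKM in Ctrl replicates 1, 2 and 3. The groups did not overlap, but the lowest Med23KO value and the highest Ctrl value, both of replicate 3, nearly met. Its log2 fold change was 0.23 (standard error 0.135, 95% interval -0.08 to 0.55, limma adjusted p = 0.397). The profiles most like that of Pparg over the 6 libraries, among 8520 named genes that averaged 5 FPKM or more, were those of Slc25a36, Spata6 and Srpk2. Their log2 values, centred on the Ctrl mean, differed from those of Pparg by a root mean square of 0.0334, 0.0444 and 0.0502. All 3 missed the threshold too (limma adjusted p = 0.294, 0.306 and 0.248). Likeness was measured with the difference between groups included, so a shared outcome follows largely from the choice.

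Cebpa (ENSMUSG00000034957.10, mm10 chromosome 7, 35119293 to 35121928, plus strand), which sustains Pparg in adipocytes, had 10.8, 7.32 and 3.12 FPKM in Med23KO replicates 1, 2 and 3, against 10.8, 6.90 and 4.39 FPKM in Ctrl replicates 1, 2 and 3. The replicates spread far more than the groups, and replicate 3 was lowest in both groups. The log2 fold change was -0.11 (standard error 0.415, 95% interval -1.08 to 0.86, limma adjusted p = 0.926). Leaving out Med23KO replicate 3 gave 0.31, leaving out Ctrl replicate 1 gave 0.18, and library weights gave 0.14. Cebpb (ENSMUSG00000056501.3, mm10 chromosome 2, 167688915 to 167690418, plus strand), the early factor, had 70.5, 49.9 and 28.5 FPKM in Med23KO replicates 1, 2 and 3, against 46.5, 52.4 and 27.4 FPKM in Ctrl replicates 1, 2 and 3. The groups overlapped, with replicate 3 again lowest in both (log2 fold change 0.19, standard error 0.350, 95% interval -0.63 to 1.01, limma adjusted p = 0.824). The Cebpb log2 fold change was -0.10 without Med23KO replicate 1 and -0.084 without Ctrl replicate 3. Tmem189 overlaps Cebpb on the other strand, at 14.5 to 30.6 FPKM in Med23KO and 12.8 to 19.6 FPKM in Ctrl, and whether the authors counted by strand is not given in the sources used here.

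Other activators of adipogenesis gave 0 higher and 1 lower call among 12 tested of 16 listed, with a median log2 fold change of 0.20. By the authors' deposited q-values under 0.05 the counts were 5 higher and 1 lower. The lower call was Klf5, a zinc finger factor that works with the C/EBP factors in preadipocytes. Klf5 fell to 10.9, 10.1 and 9.06 FPKM in Med23KO replicates 1, 2 and 3, against 19.6, 19.1 and 14.6 FPKM in Ctrl replicates 1, 2 and 3 (log2 fold change -0.76, standard error 0.140, limma adjusted p = 0.0370). The call held without Med23KO replicate 3 (limma adjusted p = 0.0292) or Ctrl replicate 3 (limma adjusted p = 0.0487). It was lost without any other single library (limma adjusted p up to 0.178) and with no filter on low values (limma adjusted p = 0.0732). Rxra, the partner of the PPARs, and Creb1, a factor upstream of Cebpb, had the highest levels of the list. Rxra had 19.5 ± 4.02 FPKM in Med23KO and 19.8 ± 3.32 FPKM in Ctrl, and Creb1 17.1 ± 1.84 FPKM in Med23KO and 18.5 ± 1.79 FPKM in Ctrl (SD, n = 3). Cebpd, the other early C/EBP factor, is named after its values were seen and was not called, with 13.2, 9.67 and 5.90 FPKM in Med23KO replicates 1, 2 and 3 against 4.52, 5.99 and 3.80 FPKM in Ctrl replicates 1, 2 and 3 (log2 fold change 0.83, limma adjusted p = 0.145). By the authors' deposited q-values Cebpd passed as higher (q = 0.00132). Klf4, Stat5a, Stat5b and Zfp423, also named after their values were seen, passed as higher there too. Without Med23KO replicate 3, limma called 3 activators higher (Cebpd, Klf4 and Stat5a). Library weights gave 2 (Klf4 and Zfp423), and the replicate number as a block gave 3 (Cebpd, Stat5a and Stat5b). Each other limma fit gave 0 higher.

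Inhibitors of adipogenesis were called in both directions, 2 higher and 1 lower among 10 tested of 12 listed (median log2 fold change -0.06). Gata3, a GATA factor that holds back Pparg in preadipocytes, rose to 5.98, 4.64 and 3.87 FPKM in Med23KO replicates 1, 2 and 3, against 1.02, 1.56 and 0.701 FPKM in Ctrl replicates 1, 2 and 3 (log2 fold change 1.48, standard error 0.203, limma adjusted p = 0.0197). Zfp521, a zinc finger protein that opposes adipocyte commitment, rose to 12.4 ± 0.791 FPKM in Med23KO, against 7.42 ± 0.640 FPKM in Ctrl (SD, n = 3; log2 fold change 0.67, limma adjusted p = 0.0271). Klf2, which represses Pparg in preadipocytes, fell to 2.53, 2.53 and 1.30 FPKM in Med23KO replicates 1, 2 and 3, against 9.80, 10.9 and 4.86 FPKM in Ctrl replicates 1, 2 and 3 (log2 fold change -1.57, standard error 0.298, limma adjusted p = 0.0385). The groups of all 3 genes lay apart. The Gata3 and Zfp521 calls held without Med23KO replicate 3 and were lost without any other single library, with limma adjusted p up to 0.117 for Gata3 and 0.152 for Zfp521. The Klf2 call held without Med23KO replicate 3 or Ctrl replicate 3 and was lost without any other (limma adjusted p up to 0.175). With no filter on low values Zfp521 and Klf2 were not called (limma adjusted p = 0.0562 and 0.0921). Hes1, a Notch effector, and the corepressor gene Ncor1 had the highest levels of the list. Hes1 had 71.9 ± 17.0 FPKM in Med23KO and 56.3 ± 13.7 FPKM in Ctrl, and Ncor1 36.1 ± 1.78 FPKM in Med23KO and 37.3 ± 1.88 FPKM in Ctrl (SD, n = 3).

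Other PPAR and RXR genes with their cofactors gave 0 calls among 7 tested of 8 listed (median log2 fold change -0.02, lowest limma adjusted p = 0.191). Ppard, the PPAR form of many tissues outside fat, is named after its values were seen and had 14.9 ± 5.05 FPKM in Med23KO and 12.7 ± 3.79 FPKM in Ctrl (SD, n = 3). In FPKM, which are scaled for length, it exceeded Pparg 3.99 to 7.71 times in Med23KO and 3.82 to 8.82 times in Ctrl. Med1, the Mediator subunit that nuclear receptors contact, had 34.8 ± 1.53 FPKM in Med23KO and 38.6 ± 1.06 FPKM in Ctrl.

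Among the genes of fatty acid supply, Lpl rose. Lpl (ENSMUSG00000015568.16, mm10 chromosome 8, 68880491 to 68907448, plus strand), the secreted lipase that frees fatty acids from lipoproteins, had 35.9, 30.8 and 20.1 FPKM in Med23KO replicates 1, 2 and 3, against 13.7, 7.44 and 10.8 FPKM in Ctrl replicates 1, 2 and 3. Every Med23KO library lay above every Ctrl library, with means of 28.9 ± 8.10 FPKM in Med23KO and 10.7 ± 3.14 FPKM in Ctrl (SD, n = 3). The log2 fold change was 1.36 (standard error 0.261, 95% interval 0.75 to 1.97, limma adjusted p = 0.0413). For low genes this log2(FPKM + 1) scale understates changes. In the order of all tested genes by mean FPKM, 79.2% lay below Lpl in Med23KO and 49.1% in Ctrl. The adjusted p was 0.00748 without Med23KO replicate 3, and without any other single library the call was lost at 0.0635 to 0.193 (limma). It was also lost with no filter on low values (limma adjusted p = 0.0900) and without a variance trend (limma adjusted p = 0.0502). The profiles most like that of Lpl were those of Anxa3, Serpine2 and Stac3, at a root mean square of 0.129, 0.206 and 0.227 (log2). Serpine2 and Stac3 were called higher (limma adjusted p = 0.0180 and 0.0233) and Anxa3 was not (limma adjusted p = 0.0654). These genes too were chosen by a measure that includes the difference between groups.

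Of the partners of lipoprotein lipase, 0 were called among 4 tested of 8 listed (median log2 fold change -0.14). Angptl4, a secreted inhibitor of the enzyme, had 9.93, 9.64 and 8.99 FPKM in Med23KO replicates 1, 2 and 3, against 16.4, 12.8 and 12.5 FPKM in Ctrl replicates 1, 2 and 3 (log2 fold change -0.49, standard error 0.128, limma adjusted p = 0.0880). All Med23KO values lay below all Ctrl values, though the test missed the threshold. Angptl4 passed as lower in the authors' deposited table (q = 0.00296) and in the limma fit with a replicate block. Lpl was 3.62, 3.20 and 2.23 times Angptl4 in Med23KO replicates 1, 2 and 3, against 0.834, 0.581 and 0.866 times in Ctrl replicates 1, 2 and 3, a log2 difference of 1.98. An exact two-sided permutation test of that ratio gave p = 0.1, the smallest that 3 against 3 libraries allow, and an adjusted p of 0.28 over 7 ratios, which were chosen after the values were seen. Sel1l, which helps the lipase to mature, had the highest level of the list, at 20.3 ± 2.38 FPKM in Med23KO and 18.1 ± 1.52 FPKM in Ctrl (SD, n = 3). Gpihbp1, which anchors the enzyme to capillary endothelium, was named after its values were seen: it was listed at 0 in every Med23KO library, and at 0.506 FPKM in Ctrl replicate 2 and 0 in the other Ctrl libraries.

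Cd36 and Fabp4, uptake and binding proteins of adipocytes that capillary endothelium and macrophages also make, were close to the filter. Cd36 (ENSMUSG00000002944.15, mm10 chromosome 5, 17781690 to 17888801, minus strand) had 1.32, 1.04 and 2.98 FPKM in Med23KO replicates 1, 2 and 3, against 1.20, 1.88 and 1.81 FPKM in Ctrl replicates 1, 2 and 3. Med23KO held both the lowest and the highest of the 6 values, and replicate 3, the lowest Med23KO library for the other 9 genes, was the highest for Cd36. The summed macrophage markers were also highest in that library, at 40.3 FPKM, of which Lyz2 alone made up 35.0 FPKM. Of the 3 tested macrophage markers only Lyz2 was highest there. Below the filter, Csf1r, Adgre1 and Ptprc were also highest there, at 0.660, 0.305 and 0.0896 FPKM, and Itgam and Fcgr1 were not. Cd14 had 2.10 FPKM in that library and up to 2.46 FPKM in Ctrl, and Cd68 had 1.84 FPKM and up to 2.37 FPKM in Ctrl. The part of these markers in the Cd36 value was not tested. The Cd36 log2 fold change was 0.02 (standard error 0.266, 95% interval -0.60 to 0.64, limma adjusted p = 0.978). It was -0.27 without Med23KO replicate 3, -0.10 without Ctrl replicate 1, -0.066 under quantile normalization and -0.17 with library weights. Fabp4 (ENSMUSG00000062515.3, mm10 chromosome 3, 10204088 to 10208576, minus strand) had 3.32, 1.24 and 0.811 FPKM in Med23KO replicates 1, 2 and 3, against 1.09, 1.07 and 0.806 FPKM in Ctrl replicates 1, 2 and 3. Med23KO replicate 1 stood above the other 5 libraries, which lay close together. The Fabp4 log2 fold change was 0.39 (standard error 0.309, 95% interval -0.33 to 1.11, limma adjusted p = 0.556) and 0.02 without that library. Among other genes of fatty acid uptake and binding, 0 were called of 9 tested and 10 listed (median log2 fold change -0.09). By the authors' deposited q-values under 0.05 the counts were 1 higher and 2 lower, beside 8.34% of all tested genes higher and 7.27% lower. The highest levels were those of Lrp1, a lipoprotein receptor gene, at 89.2 ± 11.0 FPKM in Med23KO and 94.5 ± 9.06 FPKM in Ctrl, and of Got2, an aminotransferase also described as a fatty acid binding protein, at 85.1 ± 10.2 FPKM in Med23KO and 94.6 ± 9.22 FPKM in Ctrl (SD, n = 3).

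Acsl1 (ENSMUSG00000018796.13, mm10 chromosome 8, 46471037 to 46536051, plus strand), which couples long-chain fatty acids to coenzyme A, had 20.3, 17.6 and 9.74 FPKM in Med23KO replicates 1, 2 and 3, against 8.22, 6.50 and 5.43 FPKM in Ctrl replicates 1, 2 and 3. The groups did not overlap, and Med23KO replicate 3 lay closest to the Ctrl values. The Med23KO mean was 2.36 times the Ctrl mean, and the log2 fold change of 1.09 (standard error 0.263, 95% interval 0.47 to 1.70) missed the threshold (limma adjusted p = 0.0743). Acsl1 passed without Med23KO replicate 3 (limma adjusted p = 0.00507) and with library weights (limma adjusted p = 0.00817), which called 6.89% of the tested genes higher and 6.89% lower. It also passed under quantile normalization, median scaling and equal sums without Rmrp (limma adjusted p = 0.0415, 0.0375 and 0.0311). Acsl1 was not called without any other single library (limma adjusted p = 0.117 to 0.279) or with no filter on low values (limma adjusted p = 0.143).

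The other acyl-CoA synthetases gave 0 higher and 1 lower call among 7 tested of 8 listed (median log2 fold change -0.04). Acsl6, a form known from brain and muscle, fell to 0.872, 1.01 and 1.06 FPKM in Med23KO replicates 1, 2 and 3, against 2.68, 2.29 and 2.56 FPKM in Ctrl replicates 1, 2 and 3 (log2 fold change -0.82, standard error 0.133, limma adjusted p = 0.0271). Its groups lay far apart, but the call held only without Med23KO replicate 3 (limma adjusted p = 0.0171) when 1 library was left out, and was lost without each other library (limma adjusted p = 0.0777 to 0.138). Acsl4, which favours arachidonic acid, and Acsl3, a droplet-associated form, had the highest levels. Acsl4 had 89.7 ± 18.3 FPKM in Med23KO and 64.3 ± 13.5 FPKM in Ctrl, and Acsl3 17.3 ± 8.07 FPKM in Med23KO and 17.3 ± 5.41 FPKM in Ctrl (SD, n = 3). Both were highest in replicate 3 of each group, where Acsl1 was lowest. Acsl4 was not called by limma in the main fit and passed as higher in the authors' deposited table (q = 0.000695). Acsl1 made up 17.4%, 13.3% and 5.95% of the summed FPKM of the 5 Acsl genes in Med23KO replicates 1, 2 and 3, against 9.27%, 5.66% and 4.26% in Ctrl replicates 1, 2 and 3. These shares overlapped (exact permutation p = 0.2, adjusted p = 0.28 over the 7 ratios).

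**Figure D2:**
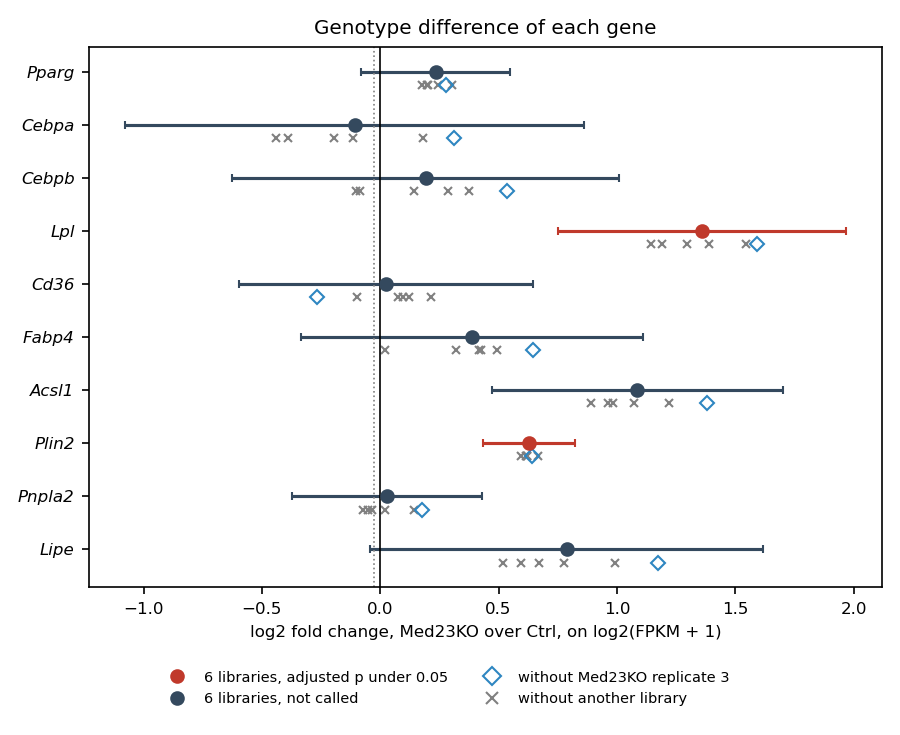
Log2 fold change of each of the 10 genes (horizontal axis, Med23KO over Ctrl on log2(FPKM + 1)), with limma estimates and 95% intervals as circles and bars, and below them the estimates without Med23KO replicate 3 (diamonds) and without each other library (crosses). Plin2 and Lpl, in red, are called, and without Med23KO replicate 3 the estimates of Lpl, Acsl1 and Lipe are 1.59, 1.38 and 1.17.

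Plin2 was the most abundant of the 10 genes, with the smallest relative spread between libraries. Plin2 (ENSMUSG00000028494.12, mm10 chromosome 4, 86648386 to 86670060, minus strand), the coat protein that most cells outside fat put on lipid droplets, had 122, 122 and 119 FPKM in Med23KO replicates 1, 2 and 3, against 82.6, 76.9 and 74.6 FPKM in Ctrl replicates 1, 2 and 3. The Med23KO values lay close together and well above all Ctrl values, with a coefficient of variation of 1.77% in Med23KO and 5.26% in Ctrl. Plin2 rose to 121 ± 2.14 FPKM in Med23KO, against 78.0 ± 4.10 FPKM in Ctrl (SD, n = 3), a log2 fold change of 0.63 (standard error 0.0836, 95% interval 0.43 to 0.82, limma adjusted p = 0.0185). With 1 library left out the log2 fold change was between 0.60 and 0.67. The call was kept without Med23KO replicate 3 (limma adjusted p = 0.00954) and without Ctrl replicate 1 (limma adjusted p = 0.0459). It was lost without Med23KO replicate 1, Med23KO replicate 2, Ctrl replicate 2 or Ctrl replicate 3 (limma adjusted p = 0.0679, 0.128, 0.106 and 0.0647). The profiles most like that of Plin2 were those of Car13, Itgb5 and Sgcb, at a root mean square of 0.0692, 0.0698 and 0.0759 (log2). All 3 were called higher (limma adjusted p = 0.0351, 0.0317 and 0.0197), which follows largely from how they were chosen.

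Other lipid droplet protein genes gave 0 calls among 8 tested of 15 listed (median log2 fold change -0.02, lowest limma adjusted p = 0.0803). The coat genes typical of fat cells were at or near 0. Cidec was at 0 in all libraries, and Plin1, named after its values were seen, reached at most 0.0375 FPKM in Med23KO and 0.0649 FPKM in Ctrl. Rab18, a droplet-associated GTPase, and Fitm1, a droplet protein of muscle, had the highest levels. Rab18 had 50.3 ± 6.42 FPKM in Med23KO and 46.7 ± 6.48 FPKM in Ctrl, and Fitm1 45.2 ± 11.5 FPKM in Med23KO and 29.4 ± 5.61 FPKM in Ctrl (SD, n = 3; limma adjusted p = 0.193 for Fitm1). Fitm1 passed as higher in the authors' deposited table (q = 0.0079). The ratio of Plin2 to Plin3, another coat gene of cells outside fat, was 5.76 to 8.10 in Med23KO and 4.77 to 5.78 in Ctrl, with overlap.

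The droplet lipases were not called, whereas G0s2, which encodes an inhibitor of adipose triglyceride lipase, fell. Pnpla2 (ENSMUSG00000025509.15, mm10 chromosome 7, 141455198 to 141460743, plus strand), which encodes that lipase, had 7.67, 7.51 and 5.34 FPKM in Med23KO replicates 1, 2 and 3, against 7.91, 6.49 and 5.59 FPKM in Ctrl replicates 1, 2 and 3. The groups overlapped across nearly their whole ranges (log2 fold change 0.03, standard error 0.172, 95% interval -0.37 to 0.43, limma adjusted p = 0.952). Leaving out Med23KO replicate 1, Med23KO replicate 2 or Ctrl replicate 3 gave -0.049, -0.037 and -0.074. Lipe (ENSMUSG00000003123.15, mm10 chromosome 7, 25379527 to 25398710, minus strand), the next lipase of the pathway, had 4.92, 3.81 and 1.39 FPKM in Med23KO replicates 1, 2 and 3, against 2.14, 1.33 and 0.805 FPKM in Ctrl replicates 1, 2 and 3. The groups overlapped through Med23KO replicate 3, which lay below Ctrl replicate 1, while the other Med23KO libraries were above all Ctrl libraries. Lipe had a log2 fold change of 0.79 (standard error 0.356, 95% interval -0.04 to 1.62, limma adjusted p = 0.279). Without Med23KO replicate 3 it was 1.17 and past the threshold (limma adjusted p = 0.0263), as it was with library weights (limma adjusted p = 0.0435). Lipe was not called without any other single library (limma adjusted p = 0.255 to 0.598). Within a library, the ratio of Lipe to Pnpla2 was 0.260 to 0.641 in Med23KO and 0.144 to 0.271 in Ctrl (exact permutation p = 0.2).

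Among 6 tested of 9 listed partners in lipolysis, G0s2 was the single call (median log2 fold change 0.11). G0s2 had 31.6, 35.7 and 51.3 FPKM in Med23KO replicates 1, 2 and 3, against 105, 137 and 129.7 FPKM in Ctrl replicates 1, 2 and 3. The groups lay far apart, with a log2 fold change of -1.65 (standard error 0.189, limma adjusted p = 0.0123). With 1 library left out, the call was lost without Med23KO replicate 2 (limma adjusted p = 0.0872) or Ctrl replicate 2 (limma adjusted p = 0.0913) and kept without each of the other 4. G0s2 was 4.12, 4.75 and 9.60 times Pnpla2 in Med23KO replicates 1, 2 and 3, against 13.3, 21.1 and 23.2 times in Ctrl replicates 1, 2 and 3 (exact permutation p = 0.1, adjusted p = 0.28 over the 7 ratios). Prkaca, the catalytic subunit of the kinase that activates lipolysis, had the next highest level, at 71.6 ± 15.3 FPKM in Med23KO and 62.1 ± 7.07 FPKM in Ctrl (SD, n = 3). Abhd5, the coactivator of the same lipase, is named after its values were seen and had 9.23 ± 0.888 FPKM in Med23KO and 9.24 ± 0.861 FPKM in Ctrl.

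**Figure D3:**
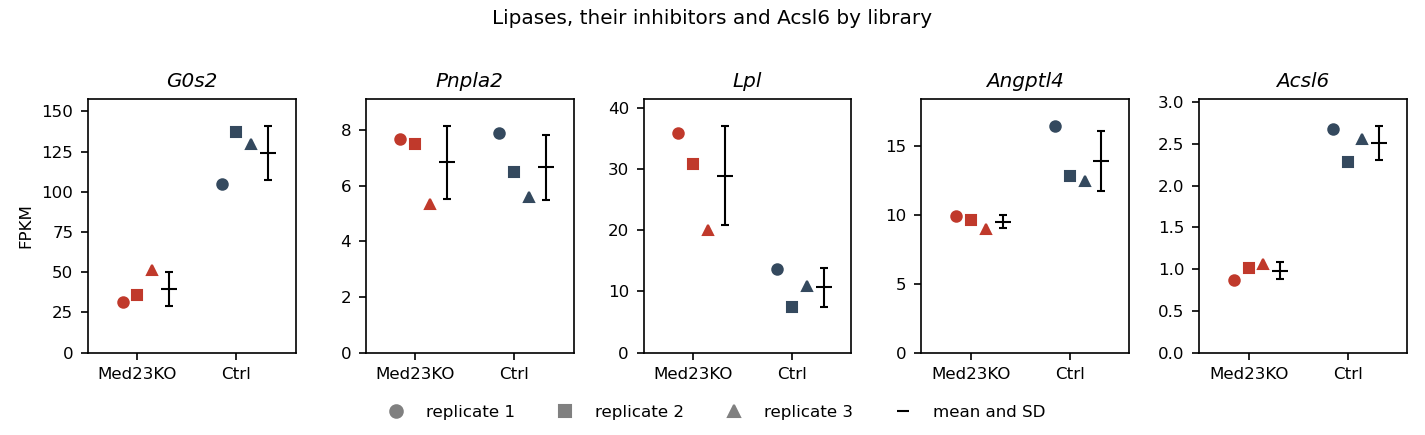
FPKM of G0s2, Pnpla2, Lpl, Angptl4 and Acsl6 (vertical axes, linear from 0) in the 3 Med23KO libraries (left, red) and the 3 Ctrl libraries (right, blue), with a symbol for each replicate number and bars for mean and SD. G0s2 is at most 51.3 FPKM in Med23KO and at least 105 FPKM in Ctrl, while the values of Pnpla2 overlap.

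Genes of triglyceride synthesis gave 0 calls among 9 tested of 13 listed (median log2 fold change 0.13, lowest limma adjusted p = 0.149). Lpin3, which encodes a phosphatidate phosphatase, had 27.5 ± 3.38 FPKM in Med23KO and 33.7 ± 0.990 FPKM in Ctrl (SD, n = 3). Gpam, an acyltransferase of the first step, had 34.9 ± 6.01 FPKM in Med23KO and 23.7 ± 4.65 FPKM in Ctrl. These were the highest levels of that list, and neither gene was called in the main fit. By the authors' deposited q-values under 0.05 the list had 3 higher, Gpam among them (q = 0.000695), and 0 lower, beside 8.34% of all tested genes higher. Limma called Gpam higher without Med23KO replicate 3, with library weights, with a replicate block and with equal sums without Rmrp. Genes of fatty acid oxidation gave 0 calls among 14 tested of 16 listed (median log2 fold change 0.11, lowest limma adjusted p = 0.153). Cpt1a, which admits fatty acids to mitochondria, had 78.5 ± 13.9 FPKM in Med23KO and 72.4 ± 6.96 FPKM in Ctrl, and Acadl, a dehydrogenase of the oxidation cycle, had 56.0 ± 3.74 FPKM in Med23KO and 55.5 ± 2.58 FPKM in Ctrl.

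**Figure D4:**
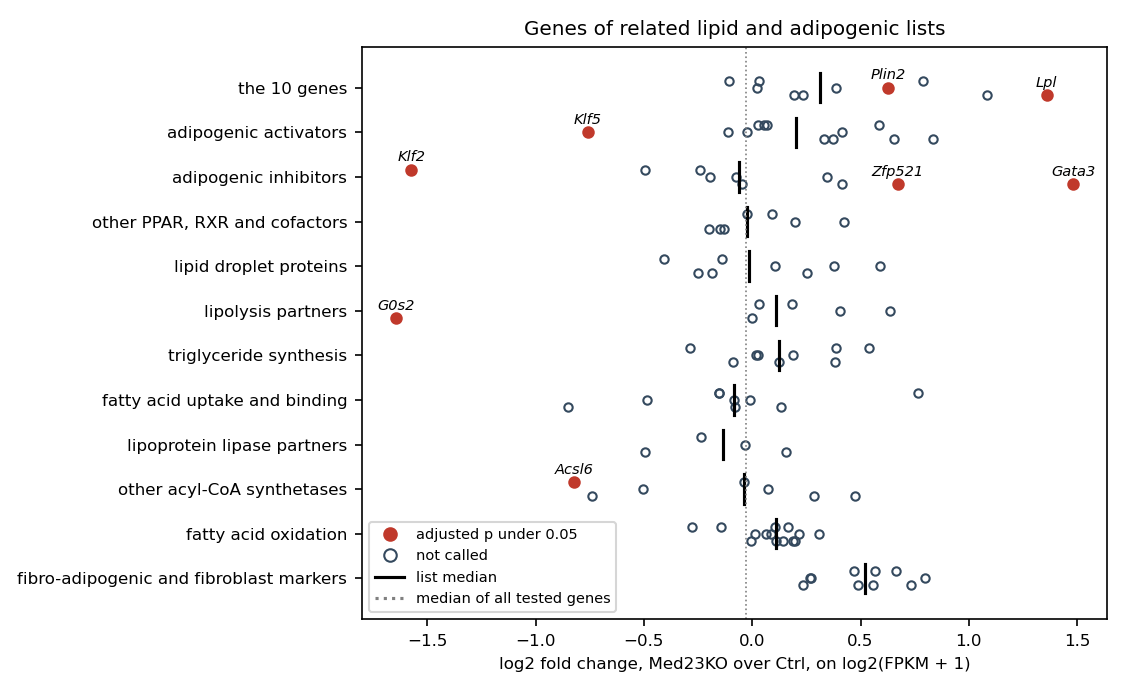
Log2 fold change (horizontal axis, Med23KO over Ctrl on log2(FPKM + 1)) of each tested gene among the 10 genes, in 10 related lists and among markers of fibro-adipogenic progenitors and fibroblasts, with filled circles for called genes, black bars for list medians and a dotted line for the median of all tested genes at -0.03. The related lists hold 2 higher and 4 lower calls, and the 10 markers in the bottom row all lie above 0.

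By level, the order in Med23KO was Plin2, Cebpb, Lpl, Acsl1, Cebpa, Pnpla2, Lipe, Pparg, Fabp4 and Cd36. In Ctrl the order was Plin2, Cebpb, Lpl, Cebpa, Acsl1, Pnpla2, Pparg, Cd36, Lipe and Fabp4. Neighbours whose libraries did not overlap were Plin2 with Cebpb and Pnpla2 with Lipe in Med23KO, and Plin2 with Cebpb, Cebpb with Lpl and Pnpla2 with Pparg in Ctrl. All other neighbours overlapped. Among all tested genes by mean FPKM, 95.8% lay below Plin2 in Med23KO and 92.9% in Ctrl. For Pparg these shares were 14.4% in Med23KO and 11.8% in Ctrl.

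The libraries of each group also differed among themselves. Med23KO replicate 3 had the lowest Med23KO value in 9 of the 10 genes, and in 56.2% of all tested genes. The lowest Ctrl value was in replicate 3 in 7 of the 10, and in 47.1% of all tested genes. Replicate 3 was lowest in both groups in 7 of the 10 genes, and in 39.7% of all tested genes. Pax7, the defining gene of muscle stem cells, named after its values were seen, had 60.3, 53.0 and 32.4 FPKM in Med23KO replicates 1, 2 and 3, against 57.7, 46.6 and 34.5 FPKM in Ctrl replicates 1, 2 and 3, and was thus also lowest in replicate 3 of both groups. Its part in the values of the 10 genes was not tested. Without Med23KO replicate 3, Plin2, Lpl, Acsl1 and Lipe were called higher, in a fit that called 6.07% of all tested genes higher and 3.20% lower. In the authors' deposited table the same 4 of the 10 genes passed as higher, at q = 0.000695 each, as did 8.34% of the tested genes, with 7.27% lower.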

How the data were processed

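RNA from 3 Med23KO and 3 Ctrl libraries was extracted with TRIzol, enriched for poly(A) RNA and made into strand-specific libraries, per the labels' protocols. FastQC, cutadapt, STAR, Cuffdiff and the mm10 build are named in the submitters' processing notes. Their versions, the annotation used and the strand setting are not stated there. The authors deposited FPKM per library and per group, with Cuffdiff p-values, q-values and a test statistic, a score that was not used here. Of 12368 genes listed by Ensembl identifier, 12316 were given symbols from GENCODE vM21, which also gave coordinates. All library columns matched a label by name. Depth is unknown: at most 15.0% of low genes (mean under 0.3 FPKM) of any library pair shared 1 ratio (tolerance 0.03, log2), so reads could not be recovered and only the spread of 3 libraries per group gives the precision.

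Genes averaging 1 FPKM or more were tested on log2(FPKM + 1) with limma 3.58.1 in R 4.3.3 (mean-variance trend, genotype only, two-sided, Benjamini-Hochberg over 12336 genes, threshold 0.05). The procedure was tested on simulated data with independent noise in each gene and library. Deviations that the genes of a library share were not part of that simulation. The 10 genes, the related lists and the marker lists were chosen with earlier results of these data known. Named from each related list were its called genes and the 2 with the highest mean; other names are marked, and 1 gene that this rule names is not reported here. Alternatives covered pseudocount, filter, normalization, variance model, library weights, a replicate block, each library left out and the authors' q-values. The labels give the replicate numbers no meaning, so the numbers were not used as pairs in the main fit. Same-numbered libraries deviated together for numbers 1 and 3 and not for number 2. These correlations cannot decide whether the numbers mark pairs, because deviations from a mean of 3 libraries depend on each other.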

Additional observations from a re-analysis of the deposited data

How the results depend on the processing

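Across all tested genes, 184 were called higher and 175 lower in Med23KO. The number higher was 73 with no filter on low values, 298 under quantile normalization, 363 with median scaling, 489 with equal sums without Rmrp, 850 with library weights and 1029 by the authors' deposited q-values. The number lower was 84 with no filter, 850 with library weights and 897 by the authors' deposited q-values. With 1 library left out, 3 to 749 genes were higher and 10 to 395 lower; the extremes came without Med23KO replicate 2 and without Med23KO replicate 3. Of the 10 genes, 2 were called higher; 1 (Plin2) was with no filter and without a variance trend, 4 (Plin2, Lpl, Acsl1 and Lipe) with library weights and by the authors' deposited q-values, and 0 to 4 with 1 library left out. In every fit, 0 of the 10 were called lower. The log2 fold change changed sign for Cebpa (0.14 with library weights; -0.44 to 0.31 with 1 library left out), Cebpb (-0.10 to 0.54), Cd36 (-0.066 under quantile normalization, -0.17 with library weights; -0.27 to 0.22) and Pnpla2 (-0.074 to 0.18), and so did the log2 difference between Med23KO and Ctrl in the ratio of Ppard to Pparg, which was -0.13 with all libraries and -0.47 to 0.13 with 1 left out. Plin2, Lpl, Acsl1, Lipe, Pparg and Fabp4 kept a log2 fold change above 0 under every alternative run. The cause of these shifts was not tested. A change in the number of genes tested goes with the filter, and 20466 genes were tested without one.

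Replicate numbers are shared by both groups in the labels, without a stated meaning. Deviations of same-numbered libraries from their group means correlated over genes at 0.44, -0.02 and 0.56 for numbers 1, 2 and 3, and Med23KO replicate 2 correlated best with Ctrl replicate 1, at 0.34. With a replicate block, 1180 genes (9.57% of those tested) were called higher and 1577 (12.8%) lower, and 4 of the 10 genes (Plin2, Lpl, Acsl1 and Lipe) were called higher.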
